A study of Mus musculus with 13 samples.

Results

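Transcript levels of 8 genes that restrain T cell receptor signaling were examined in mouse thymic lymphomas and in normal thymus. The genes were taken by symbol and are Cbl, Cblb, Itch, Rnf128, Ptpn2, Ptpn6, Ptpn22 and Csk, which make up 8 of the 43629 genes of the deposited table. RNA was sequenced from 13 libraries. The 5 Atm-/- lymphomas arose in 129S6/SvEv mice that lack the DNA damage kinase ATM. The 5 Rag2c/c p53-/- lymphomas arose in mice of mixed C57BL/6 and 129S6/SvEv background that lack p53 and carry RAG2 without its C terminus, the core form of this V(D)J recombinase subunit. The 3 WT thymuses came from C57BL/6 mice, carried no engineered allele and were re-used from an earlier series. Each library came from a different mouse, and polyA RNA was prepared from suspended cells of thymus or tumor, with no sort stated. Strain and the origin of the libraries (an earlier series for all thymuses) follow the groups, so their part in a difference cannot be told apart from that of genotype or transformation. The source field of the WT samples reads thymic lymphoma while their tissue field reads thymus, and they are treated as thymus here.

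A T cell receptor that binds its ligand is phosphorylated by the kinase Lck, and the signal passes through Zap70 and adaptors to calcium, Ras and protein kinase C. The 8 genes oppose this at separate points. Cbl, Cblb, Itch and Rnf128 encode E3 ubiquitin ligases that mark receptor chains, kinases and adaptors for internalization or degradation. Ptpn2, Ptpn6 and Ptpn22 encode tyrosine phosphatases that remove activating phosphates from Lck, Zap70 or JAK kinases, and Csk encodes the kinase that places the inhibitory phosphate on Lck. In the thymus, these brakes set how strongly a developing T cell reads self ligands during selection.

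Values are normalized counts, that is, read counts divided by a size factor for each library and rounded by the authors to whole numbers. Library totals lay between 19788898 and 21591289, and 17325 to 22338 genes had a value above 0. In 6 libraries, low values skipped whole numbers, and 1 read was worth 1.47 to 3.38 units, which gives an estimated 6.37 to 13.7 M reads. These were replicate 2 of the WT thymuses, replicates 2, 3 and 4 of the Atm-/- lymphomas, and replicates 2 and 4 of the Rag2c/c p53-/- lymphomas. In the other 7 libraries, the worth of 1 read could not be read from the values. All 8 T lineage markers were present in every group, with summed normalized counts of 82156 to 127011 in WT thymus, 51287 to 107720 in Atm-/- lymphomas and 57379 to 99407 in Rag2c/c p53-/- lymphomas. Of these, 2 passed as lower in Atm-/- lymphomas (Cd5 and Cd8a) and 1 in Rag2c/c p53-/- lymphomas (Cd5), and the group means of Cd5 were 6463, 1763 and 1251. Other markers moved with the groups. The 6 fibroblast markers summed to 204 to 218 in WT thymus, 3783 to 18172 in Atm-/- lymphomas and 642 to 2336 in Rag2c/c p53-/- lymphomas, and in the comparisons of these lymphomas with WT thymus 5 and 4 of them passed as higher. Col1a2 was the most abundant of the 6. Its part of the sum in Atm-/- lymphomas lay between 6874 of 18172 (replicate 4) and 4259 of 5252 (replicate 3). The 6 myeloid markers summed to 3149 to 3497, 5791 to 9180 and 3161 to 6299, with 4 and 1 passing as higher. The 6 thymic epithelium markers summed to 725 to 1058, 189 to 609 and 287 to 1320, with 4 and 4 passing as lower, and Psmb11 was at 0 in all Atm-/- lymphomas. The 6 B cell markers summed to 1576 to 1885, 199 to 325 and 219 to 554, with 5 and 5 passing as lower. The 6 dividing cell markers summed to 34401 to 39788, 28849 to 62287 and 33348 to 49498, with 4 and 2 passing as higher. The most abundant genes of the other lists were Thy1 (T lineage), Lyz2 (myeloid), Epcam (thymic epithelium), Cd79b (B cell) and Top2a (dividing cells). The part of these markers in the results was not tested. Since RNA came from suspended cells with no sort stated, fewer cells of a type cannot be told apart from less RNA per cell.

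Among the ligases, Cbl was far lower in both lymphoma types than in normal thymus, Itch was lower to a smaller extent, and Cblb was lower in the Rag2c/c p53-/- lymphomas. A gene passed at a Benjamini-Hochberg adjusted p under 0.05 over the 15872 genes that reached 10 in 3 or more libraries, by limma on log2(normalized count + 1). All 8 genes entered the test. In Atm-/- lymphomas against WT thymus, 3 of the 8 genes passed (Cbl and Itch lower, Ptpn2 higher), where 44.6% of all genes passed, 21.0% as higher and 23.6% as lower. In Rag2c/c p53-/- lymphomas against WT thymus, 5 of 8 passed (Cbl, Cblb, Itch and Ptpn22 lower, Ptpn2 higher), against 37.3% of all genes, 17.5% as higher and 19.7% as lower. A difference of at least 2-fold was reached by 2 of 8 genes in each of these comparisons, where 29.5% and 23.6% of all genes reached it. The share of the 8 genes that passed was thus near that of all genes in Atm-/- lymphomas, and in Rag2c/c p53-/- lymphomas it was above. The 2-fold shares were near those of all genes in both lymphoma types. Without replicate 2 of each group, the libraries of fewest estimated reads, 5 and 3 of the 8 genes passed, where 44.9% and 33.1% of all genes did. For Rag2c/c p53-/- lymphomas, 2 passed without replicate 1 or 3 of the WT thymuses (23.4% and 22.5% of all genes), and 3 without WT replicate 2 alone (26.3%) or replicate 4 of the Atm-/- lymphomas (37.1%). Both comparisons use the same 3 WT thymuses, and their values are therefore given side by side.

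**Figure D1:**
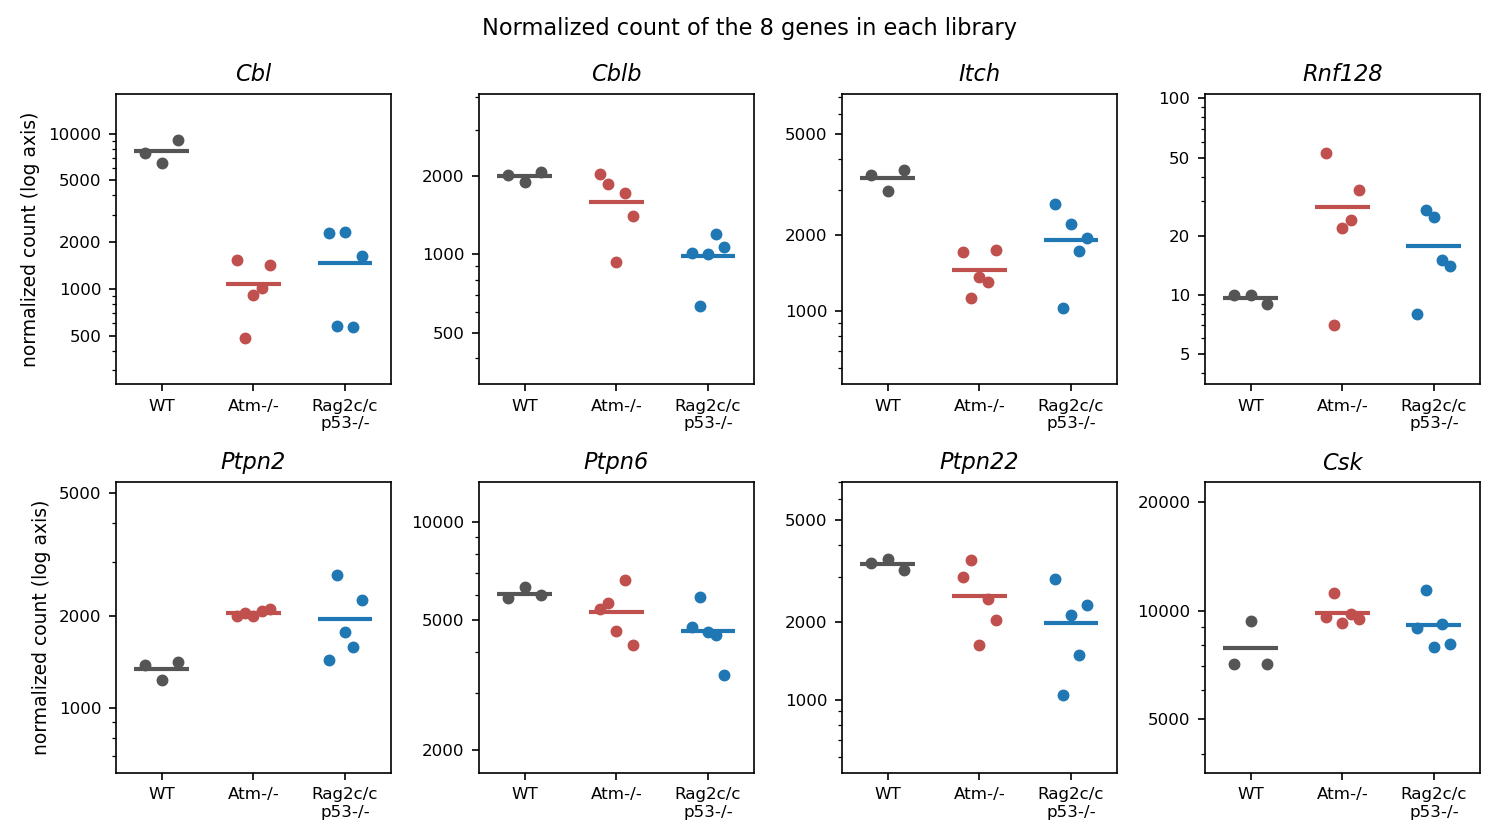
Normalized count (log axis, a separate range for each gene) of the 8 genes in 3 WT thymuses (grey), 5 Atm-/- lymphomas (red) and 5 Rag2c/c p53-/- lymphomas (blue). Points are libraries and lines are group means; for Cbl, all 10 lymphomas lie at or below 2324 while the thymuses start at 6520.

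Cbl, a RING-type ligase that targets the receptor zeta chain and Zap70 and is prominent in immature thymocytes, was measured at 7534, 6520 and 9082 normalized counts in the WT thymuses. The Atm-/- lymphomas had 1537, 486, 910, 1017 and 1426, and the Rag2c/c p53-/- lymphomas had 2287, 574, 2324, 569 and 1626. Every lymphoma was below every thymus. In normalized counts, though not on the log2 scale, the lowest thymus was above the highest lymphoma by more than the whole range of the lymphomas. The group means were 7712 ± 1290 (SD, n = 3), 1075 ± 422.5 (SD, n = 5) and 1476 ± 871.1 (SD, n = 5). Cbl fell by 2.94 ± 0.50 (SE) on the log2 scale in Atm-/- lymphomas, a 7.66-fold lower level (limma adjusted p = 0.000468). It fell by 2.63 ± 0.50 in Rag2c/c p53-/- lymphomas, a 6.20-fold lower level (limma adjusted p = 0.00135). The lymphomas differed among themselves more for Cbl than for most genes. Its highest lymphoma exceeded its lowest by 3.16-fold in the Atm-/- group and by 4.08-fold in the Rag2c/c p53-/- group, and 93.8% and 98.8% of 4453 genes of like level had a lower SD in the same libraries. The 3 lowest values of Cbl were in replicate 2 of the Atm-/- and replicates 2 and 4 of the Rag2c/c p53-/- lymphomas. Their estimated reads were 9.23, 6.37 and 13.7 M. In each group, Cbl was lower in the libraries whose low values skipped whole numbers than in the others. It was 486 to 1017 against 1426 and 1537 in Atm-/- lymphomas, and 569 and 574 against 1626 to 2324 in Rag2c/c p53-/- lymphomas. The WT library of this kind had 6520, against 7534 and 9082, and Itch was ordered the same way in each group. Libraries of this kind were also the lowest of their group in the level of genes of 9000 bp or more, as given below. The part of depth and that of transcript length in this order were not tested. Without replicate 2 of each group, which has the fewest estimated reads there, the log2 differences were -2.79 and -2.47 (limma adjusted p = 0.00196 and 0.00522).

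Cbl (ENSMUSG00000034342) lies on the minus strand of chromosome 9 from 44149262 to 44234046 in GRCm38. Of its 20 nearest tested neighbors, 10 on either side and within 1.4 Mb, only 1 passed as lower in each comparison with WT thymus. Of these neighbors, 9 passed as higher and 1 as lower in Atm-/- lymphomas, with a median log2 difference of 0.47. In Rag2c/c p53-/- lymphomas, 8 passed as higher and 1 as lower, with a median of 0.65. Of all genes, 21.0% and 17.5% passed as higher in these comparisons, and 23.6% and 19.7% as lower. No neighbor had a lower log2 difference than Cbl in either comparison. The 250 bases before the RefSeq start of Cbl (GRCm38.p6, chr9:44234047-44234296, minus strand, written 5′ to 3′ along the gene) are shown because Cbl has the widest difference of the 8 genes. Capitals mark GGGCGG, the GC box bound by Sp factors, searched on both strands.

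Cbl: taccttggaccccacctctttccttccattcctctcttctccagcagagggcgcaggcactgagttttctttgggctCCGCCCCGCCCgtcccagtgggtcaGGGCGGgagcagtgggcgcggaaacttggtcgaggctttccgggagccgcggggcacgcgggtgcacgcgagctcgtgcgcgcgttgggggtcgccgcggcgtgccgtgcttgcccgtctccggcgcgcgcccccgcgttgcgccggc

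The window holds 3 matches, the first 2 of them overlapping by 1 base, and 71.6% of its bases are G or C, against a median of 52.4% over 32851 RefSeq windows of the same length. A GC box was in 32.7% of those windows. The windows of Cblb, Rnf128 and Ptpn6 held 2, 1 and 5 matches, and those of Ptpn22 and Csk held 0. Promoter entries were used for 6 of the 8 genes. Itch had no entry, and Ptpn2 was left out of this step.

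Cblb, the close relative of Cbl that sets the need for CD28 costimulation in mature T cells, followed another course. Its normalized counts were 2009, 1891 and 2066 in WT thymuses, 2031, 1863, 935, 1720 and 1404 in Atm-/- lymphomas, and 1012, 635, 1002, 1191 and 1065 in Rag2c/c p53-/- lymphomas. All Rag2c/c p53-/- lymphomas were below all thymuses, whereas the Atm-/- lymphomas overlapped them. Cblb fell by 1.05 ± 0.25 on the log2 scale in Rag2c/c p53-/- lymphomas, to 2.07-fold below WT thymus (limma adjusted p = 0.00518). In Atm-/- lymphomas the difference was -0.37 ± 0.25 (limma adjusted p = 0.233). The difference between the lymphoma types, 0.68 ± 0.21 with a 95% confidence interval of 0.22 to 1.14, did not pass (limma adjusted p = 0.0559), and replicate 3 of the Atm-/- lymphomas, at 935, lay among the Rag2c/c p53-/- values. Without that library it was 0.86 and passed (limma adjusted p = 0.0106).

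Itch, a HECT-type ligase of the Nedd4 family that acts on adaptors and on Jun proteins, had 3459, 2989 and 3606 normalized counts in WT thymuses. It had 1707, 1128, 1371, 1301 and 1740 in Atm-/- lymphomas and 2654, 1033, 2212, 1725 and 1937 in Rag2c/c p53-/- lymphomas. All lymphomas were below all thymuses. Itch fell by 1.22 ± 0.25 on the log2 scale in Atm-/- lymphomas (2.34-fold lower, limma adjusted p = 0.00176) and by 0.87 ± 0.25 in Rag2c/c p53-/- lymphomas (1.83-fold lower, limma adjusted p = 0.0160). The latter no longer passed when replicate 1 or 3 of the WT thymuses was left out (limma adjusted p = 0.0603 and 0.0683).

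Rnf128, which encodes the membrane-anchored ligase GRAIL known from anergic T cells, was near the floor of detection. It had 10, 10 and 9 normalized counts in WT thymuses, 53, 7, 22, 24 and 34 in Atm-/- lymphomas, and 8, 27, 25, 15 and 14 in Rag2c/c p53-/- lymphomas. All but 2 lymphomas were above the thymuses, but the groups overlapped and neither difference passed (1.20 ± 0.58, limma adjusted p = 0.106, and 0.70 ± 0.58, limma adjusted p = 0.355). One read was worth up to 3.38 units in the shallowest library, so these values rest on few reads. The Atm-/- difference passed without replicate 2 of the Atm-/- lymphomas, at 1.599 (limma adjusted p = 0.0161).

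To compare ligases with each other, normalized counts were divided by exonic length in kb. For Cbl, GENCODE extends the gene to 44142976, beyond the 44149262 at which it ends in the deposited table. Its level per kb may therefore be too low, and the orders and shares below rest on this length. In WT thymus the order was Cbl (624.7 ± 104.5 per kb, SD), Itch (345.2 ± 33.2), Cblb (189.8 ± 8.52) and Rnf128 (2.79 ± 0.17), and no neighbors in this order overlapped. In Atm-/- lymphomas, Cblb (151.8 ± 41.3), Itch (149.3 ± 27.4) and Cbl (87.1 ± 34.2) came close, with each overlapping the next. In Rag2c/c p53-/- lymphomas the order was Itch (197.0 ± 62.0), Cbl (119.6 ± 70.6) and Cblb (93.7 ± 19.8), again with overlap. Cbl made up 51.8 to 56.3% of the summed ligase level per kb in WT thymus, 11.7 to 26.3% in Atm-/- lymphomas and 13.5 to 36.3% in Rag2c/c p53-/- lymphomas. Cblb made up 15.1 to 17.7% in WT thymus, 28.7 to 53% in Atm-/- and 17.3 to 33.3% in Rag2c/c p53-/- lymphomas. Itch took 43.9 to 52.0% of the sum in Rag2c/c p53-/- lymphomas, compared with 28.4 to 30.7% in WT thymus. The sum itself was 1019 to 1307 per kb in WT thymus, 310.5 to 509.5 in Atm-/- and 221.3 to 557.5 in Rag2c/c p53-/- lymphomas. The ratio of Cblb to Cbl normalized counts, which no size factor can alter, was 0.227 to 0.290 in WT thymus, 0.985 to 3.83 in Atm-/- and 0.431 to 2.09 in Rag2c/c p53-/- lymphomas. The thymuses and the lymphomas did not overlap in this ratio.

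**Figure D2:**
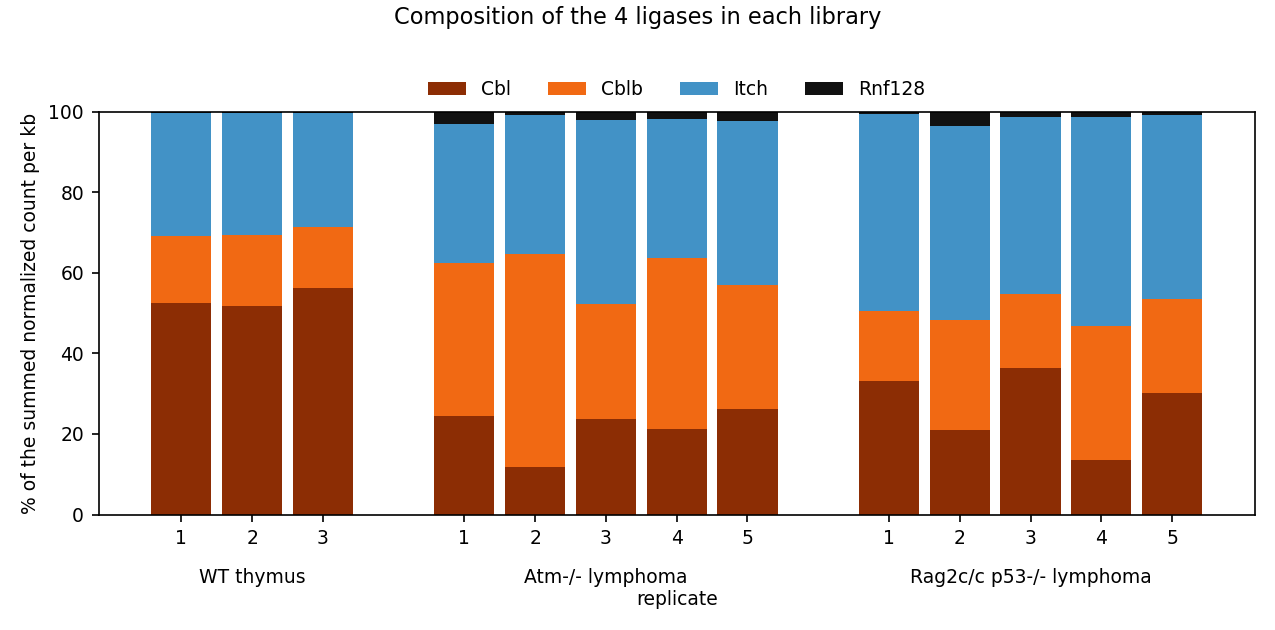
Share (%) of the summed normalized count per kb of exonic length that each of the 4 ligases takes, 1 bar per library with replicate numbers below. Cbl holds 51.8 to 56.3% in the 3 WT thymuses and at most 36.3% in any lymphoma, and Rnf128 holds at most 3.52%. The shares rest on the GENCODE length of Cbl, which reaches beyond the gene in the deposited table.

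Among the phosphatases, Ptpn2 was higher in both lymphoma types, Ptpn22 was lower in the Rag2c/c p53-/- lymphomas, and Ptpn6 did not pass in either. Ptpn2, which dephosphorylates Lck and JAK kinases and limits cytokine as well as receptor signals, had 1382, 1234 and 1415 normalized counts in WT thymuses. The Atm-/- lymphomas had 1990, 2048, 1999, 2079 and 2097, and the Rag2c/c p53-/- lymphomas had 1438, 2722, 1775, 1587 and 2243. All lymphomas were above all thymuses, and the 5 Atm-/- lymphomas lay within 1.05-fold of each other. Their SD of 0.033 on the log2 scale was undercut by 0.1% of 4390 genes of like level. Ptpn2 rose by 0.61 ± 0.18 in Atm-/- lymphomas (1.52-fold, limma adjusted p = 0.0159) and by 0.50 ± 0.18 in Rag2c/c p53-/- lymphomas (1.42-fold, limma adjusted p = 0.0438). The first no longer passed without replicate 2 of the WT thymuses (0.55, limma adjusted p = 0.0660). The second failed when any of 10 of the 13 libraries was left out, with limma adjusted p-values of 0.0504 to 0.142.

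Ptpn22, the phosphatase that acts on the activating tyrosine of Lck in partnership with Csk, had 3406, 3505 and 3200 normalized counts in WT thymuses. It had 2993, 3485, 1635, 2459 and 2033 in Atm-/- lymphomas and 2946, 1040, 2137, 1497 and 2339 in Rag2c/c p53-/- lymphomas. All Rag2c/c p53-/- lymphomas were below the thymuses, although by little, with the highest of them at 2946 and the lowest thymus at 3200. Ptpn22 fell by 0.85 ± 0.31 on the log2 scale in this group (1.8-fold lower, limma adjusted p = 0.0432), and the call was lost without any 1 of the 3 WT thymuses, replicate 2 or 4 of the Rag2c/c p53-/- lymphomas or replicate 4 of the Atm-/- lymphomas (limma adjusted p of 0.0525 to 0.114). In Atm-/- lymphomas the difference was -0.47 ± 0.31 (limma adjusted p = 0.225). The 250 bases before its start (GRCm38.p6, chr3:103859545-103859794, plus strand) are shown because Ptpn22 also passed as lower. The window of Cblb is not printed, since a GENCODE transcript of that gene starts before it. Capitals mark ACTTCC, the reverse complement of GGAAGT, a core bound by ETS factors and searched on both strands.

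Ptpn22: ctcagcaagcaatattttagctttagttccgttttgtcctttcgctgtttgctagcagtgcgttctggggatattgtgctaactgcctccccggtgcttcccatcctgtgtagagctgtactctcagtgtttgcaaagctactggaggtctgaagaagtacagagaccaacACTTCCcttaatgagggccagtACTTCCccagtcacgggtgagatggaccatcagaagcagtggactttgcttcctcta

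The window has 2 matches, 79 to 74 and 57 to 52 bases before the start, and 49.2% G or C, and 19.7% of all 32851 windows held at least 1 match. Another RefSeq window of Ptpn22 (chr3:103860027-103860276) had 46.0% G or C and held 0 matches. Among the other genes, the Ptpn6 window held 2 matches and those of Cbl, Cblb, Rnf128 and Csk held 0. Matches are given as a description of the letters.

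Ptpn6, which encodes SHP-1, had 5842, 6322 and 5968 normalized counts in WT thymuses, a median of 5419 in Atm-/- lymphomas (4209 to 6648) and a median of 4593 in Rag2c/c p53-/- lymphomas (3404 to 5914). Both lymphoma groups overlapped the thymuses. The log2 differences were -0.20 ± 0.18 (limma adjusted p = 0.374) and -0.40 ± 0.18 (limma adjusted p = 0.0926). The latter passed without replicate 2 of the Rag2c/c p53-/- lymphomas (-0.50, limma adjusted p = 0.0359) and with quantile normalization (-0.45, limma adjusted p = 0.0439).

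Csk, the kinase that holds Lck inactive, had 7093, 9330 and 7127 normalized counts in WT thymuses, 9574, 11185, 9257, 9798 and 9483 in Atm-/- lymphomas, and 8968, 11368, 7907, 9167 and 8059 in Rag2c/c p53-/- lymphomas. Replicate 2 of the WT thymuses lay among the lymphomas, and the other 2 thymuses lay below all of them. The log2 differences were 0.34 ± 0.15 (95% confidence interval 0.02 to 0.66, limma adjusted p = 0.0779) and 0.21 ± 0.15 (-0.11 to 0.53, limma adjusted p = 0.277), and neither passed. Without replicate 2 of the WT thymuses the Atm-/- difference was 0.47 and passed (limma adjusted p = 0.0365).

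Per kb, Ptpn6 (2157 ± 88.8, SD) and Csk (2101 ± 343.0) overlapped at the top of the 8 genes in WT thymus, above 98.1% and 98.0% of the 15759 tested genes with an exonic length. In Atm-/- lymphomas, Csk (2638 ± 205.0) was above Ptpn6 (1898 ± 337.4) without overlap, and the same held in Rag2c/c p53-/- lymphomas (2433 ± 370.6 and 1655 ± 318.3). The level of Cbl was above that of 86.7% of these genes in WT thymus, 45.5% in Atm-/- lymphomas and 51.4% in Rag2c/c p53-/- lymphomas, whereas that of Rnf128 was above at most 15.9% of genes in any group. The percentages of Cbl rest on its GENCODE length and may be too low. For Csk too, GENCODE extends the gene, to 57653631, beyond the 57645653 of the deposited table. Its level per kb may therefore be too low, and its order against Ptpn6 rests on this length. Ptpn2 was below Ptpn22 in WT thymus (430.0 ± 30.9 and 497.5 ± 23.0) and above it in Atm-/- (653.6 ± 15.2 and 372.1 ± 108.9) and Rag2c/c p53-/- lymphomas (625 ± 168.3 and 294.0 ± 109.5). Library by library, the ratio of Ptpn2 to Ptpn22 per kb was 0.763 to 0.959 in thymuses and 1.06 to 5.67 in lymphomas. The highest was in replicate 2 of the Rag2c/c p53-/- lymphomas. Ptpn2 and Ptpn22 have exonic lengths of 3125 and 6775 bp, and the length trend given below runs the same way. Dividing by kb does not remove a trend that differs between libraries.

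**Figure D3:**
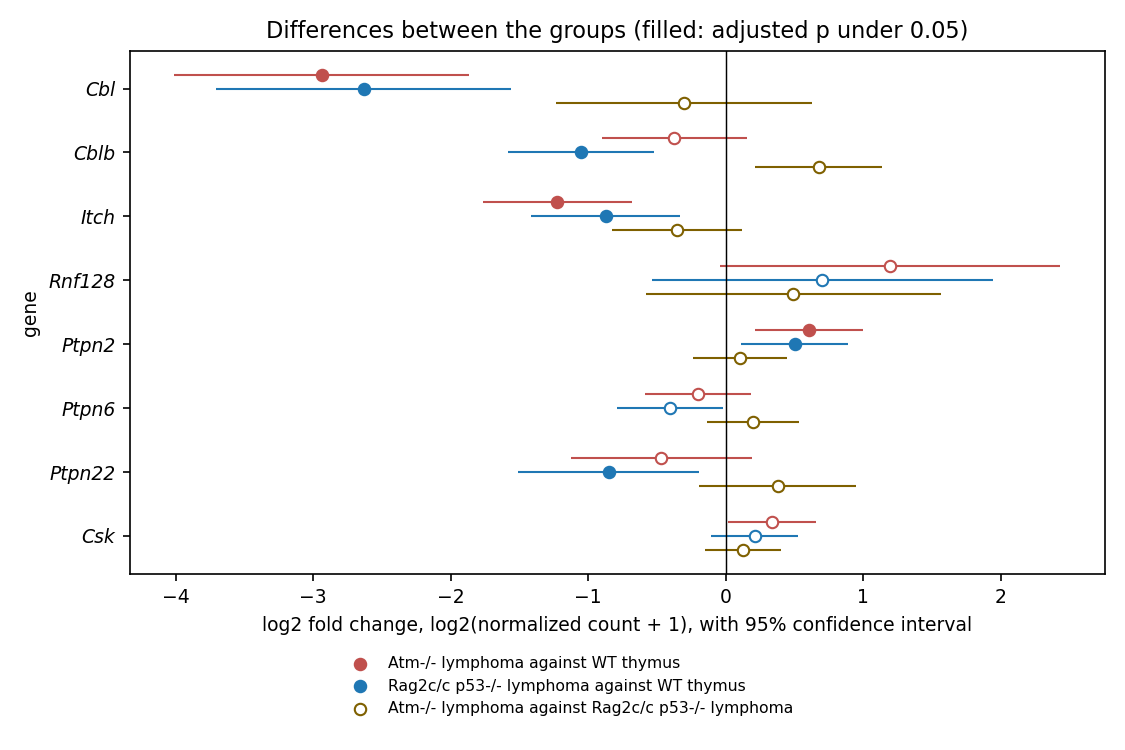
Log2 fold change on log2(normalized count + 1) of the 8 genes in 3 comparisons, with 95% confidence intervals from limma. Filled points have an adjusted p under 0.05, and Cbl lies farthest from 0, at -2.94 and -2.63 against WT thymus.

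Against each other, the lymphoma types gave no call for the 8 genes. In Atm-/- against Rag2c/c p53-/- lymphomas, 0 of 8 genes passed with limma, where 11.6% of all genes passed and 7.84% differed by at least 2-fold. At an unadjusted p under 0.05, 1 gene (Cblb) was below the threshold, both with limma and with a two-sided exact permutation test (p = 0.0397). For Cbl, the difference was -0.30 with a 95% confidence interval of -1.23 to 0.63, which does not show equal levels. The interval was narrower for Csk (-0.15 to 0.40), Ptpn2 (-0.23 to 0.44) and Ptpn6 (-0.13 to 0.54). The exact permutation test of lymphomas against thymuses cannot go below p = 0.0357. Cbl, Itch and Ptpn2 reached that value in both comparisons, and Cblb and Ptpn22 in the Rag2c/c p53-/- comparison. Any gene whose groups do not overlap reaches it, so it adds nothing beyond the lack of overlap. The share of all genes without overlap is not given here.

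Fold changes moved with transcript length across the whole table. Among tested genes with a group mean of at least 500, the median log2 difference of Atm-/- lymphomas from WT thymus was 0.36 for exonic lengths under 4000 bp, -0.03 from 4000 to 6000 bp, -0.30 from 6000 to 9000 bp and -0.53 from 9000 bp. In Rag2c/c p53-/- lymphomas the medians were 0.32, -0.02, -0.25 and -0.50. The 4 genes that passed as lower in either comparison are the 4 longest of the 8, with exonic lengths of 12345 bp (Cbl), 10475 bp (Cblb), 9709 bp (Itch) and 6775 bp (Ptpn22), and the other 4 span 2802 to 3737 bp. The trend was also seen among libraries of 1 group. The median centered log2 level of 1159 genes of 9000 bp or more was 0.29 to 0.45 in WT thymuses, -0.33 to 0.06 in Atm-/- and -0.47 to 0.12 in Rag2c/c p53-/- lymphomas, lowest in replicate 2 of each lymphoma group. Within each group it was lower in the libraries whose low values skipped whole numbers. It was 0.289 against 0.367 and 0.45 in WT thymuses and -0.333 to -0.141 against 0.034 and 0.059 in Atm-/- lymphomas. In Rag2c/c p53-/- lymphomas it was -0.468 and -0.275 against -0.005 to 0.124.

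Cbl stood far below this trend, and Itch and Cblb lay closer to it. Of genes of 9000 bp or more, 2.6% had a lower log2 difference than Cbl in Atm-/- lymphomas against WT thymus, as had 2.5% in the Rag2c/c p53-/- comparison. For Itch the shares were 19.1% and 29.4%, and for Cblb 56.9% and 23.2%. The length of Cbl is that of GENCODE, which reaches beyond the gene in the deposited table. Among genes of 6000 to 9000 bp, 2.4% and 1.6% had a lower log2 difference than Cbl. When the length trend was subtracted within each library, a step chosen after seeing the data, Cbl was still lower, with log2 differences of -2.4 ± 0.37 and -2.10 ± 0.37 (limma adjusted p = 0.000245 and 0.000853). Itch was lower too, with -0.80 ± 0.15 and -0.47 ± 0.15 (limma adjusted p = 0.000997 and 0.0278). Cblb no longer passed against WT thymus in either group (0.09 ± 0.24, limma adjusted p = 0.786, and -0.61 ± 0.24, limma adjusted p = 0.0592), while its difference between the lymphoma types passed at 0.69 ± 0.20 (limma adjusted p = 0.0393). Ptpn2 was higher by 0.50 ± 0.16 in Atm-/- lymphomas (limma adjusted p = 0.0247) but no longer passed in Rag2c/c p53-/- lymphomas (0.40 ± 0.16, limma adjusted p = 0.0730). Ptpn22 did not pass (-0.60 ± 0.28, limma adjusted p = 0.110) and Ptpn6 fell by 0.55 ± 0.16 (limma adjusted p = 0.0167) in Rag2c/c p53-/- lymphomas. With the trend removed, 3 of 8 genes passed in each comparison with WT thymus, which were Cbl, Itch and Ptpn2 in Atm-/- lymphomas and Cbl, Itch and Ptpn6 in Rag2c/c p53-/- lymphomas. Of all genes, 43.9% and 36.6% passed in that setting, near the share of the 8.

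**Figure D4:**
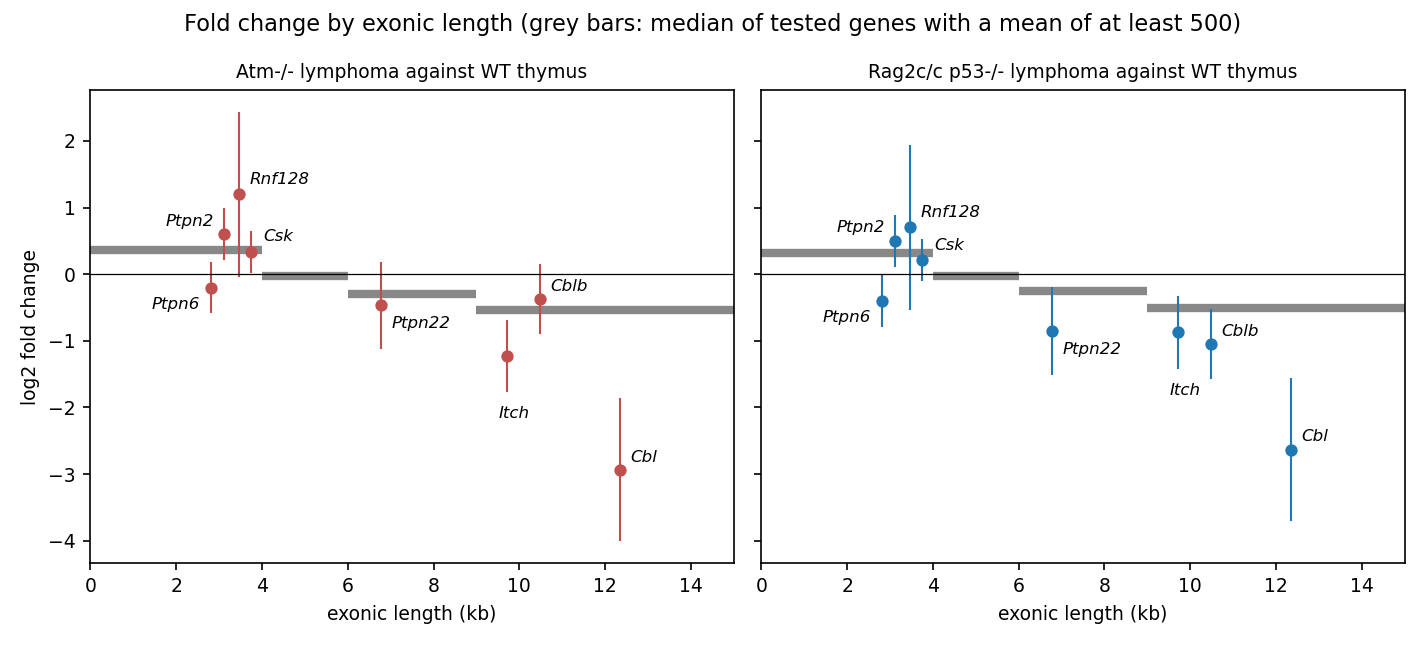
Log2 fold change against exonic length (kb) in Atm-/- (left) and Rag2c/c p53-/- lymphomas (right) against WT thymus; colored points are the 8 genes with 95% confidence intervals, and grey bars are medians of all tested genes of a length class with a group mean of at least 500. The grey bars descend from 0.36 to -0.53 and from 0.32 to -0.50, and Cbl lies well below the last bar in both panels.

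The genes around the 8 brakes were taken from 8 lists with 69 genes, of which 67 were tested. Of these, 40 passed as lower and 2 as higher in Atm-/- lymphomas (median log2 difference -0.80), and 32 passed as lower and 2 as higher in Rag2c/c p53-/- lymphomas (median -0.59). Over all genes the medians were -0.02 and -0.02. Of all genes, 23.6% passed as lower and 21.0% as higher in Atm-/- lymphomas, and 19.7% and 17.5% in Rag2c/c p53-/- lymphomas. Among long genes with a group mean of at least 500, 33.8% and 27.6% passed as lower from 6000 to 9000 bp, and 43.5% and 40.1% from 9000 bp. The counts of single lists below are to be read beside these shares. With the length trend removed the counts were 32 lower and 4 higher, and 27 lower and 2 higher. In that setting, 43.9% and 36.6% of all genes passed in either direction. Between the lymphoma types, 9 of 67 genes passed, 3 higher and 6 lower in Atm-/- lymphomas, a share close to the 11.6% of all genes.

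The direct partners of the ligases were mixed. Cblc, the epithelial Cbl, was not tested, with at most 4 normalized counts in any library. Ubash3b, the phosphatase Sts-1 that binds Cbl, had 500, 465 and 525 normalized counts in WT thymuses and 134, 34, 43, 75 and 228 in Atm-/- lymphomas, and fell by 2.61 ± 0.60 (limma adjusted p = 0.00357). In Rag2c/c p53-/- lymphomas all of its values (84 to 274) were below the thymuses, but the difference of -1.57 ± 0.60 did not pass (limma adjusted p = 0.0543). Its relative Ubash3a passed in neither comparison with WT thymus (0.11 ± 0.19 and -0.45 ± 0.19), but passed as higher in Atm-/- lymphomas with the length trend removed (0.60 ± 0.18, limma adjusted p = 0.0178). Of the 6 tested genes of this list, 3 passed as lower and 1, Sh3kbp1, as higher in Atm-/- lymphomas (0.47 ± 0.15, and 0.91 ± 0.16 with the length trend removed), and 2 as lower in Rag2c/c p53-/- lymphomas. Ndfip1, the adaptor that activates Itch, had 1305, 1511 and 1329 in WT thymuses, 688 to 989 in Atm-/- and 412 to 672 in Rag2c/c p53-/- lymphomas. The log2 differences were -0.78 ± 0.19 and -1.45 ± 0.19 (limma adjusted p = 0.00528 and 0.000125), and the lymphoma types did not overlap (0.67 ± 0.17, limma adjusted p = 0.0192). Its relative Ndfip2 fell by 1.13 ± 0.19 in Atm-/- and by 0.57 ± 0.19 in Rag2c/c p53-/- lymphomas (limma adjusted p = 0.000388 and 0.0280). With the length trend removed the values for Ndfip2 were -0.62 ± 0.23 and -0.08 ± 0.23, and the second no longer passed (limma adjusted p = 0.0435 and 0.824). In the Nedd4 family list as a whole, 4 of 8 genes passed as lower in each comparison and 0 as higher.

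Of 6 relatives and deubiquitinases of Rnf128, 4 passed as lower in Atm-/- lymphomas and 3 in Rag2c/c p53-/- lymphomas. Rnf13 was lower with log2 differences of -1.302 ± 0.26 and -1.23 ± 0.26 (-0.86 and -0.81 with the length trend removed, where it still passed), and Rnf167 with -1.82 ± 0.27 and -1.04 ± 0.27. Rnf130 fell by 1.96 ± 0.47 in Atm-/- lymphomas (limma adjusted p = 0.00457) and was lower there than in Rag2c/c p53-/- lymphomas (-1.63 ± 0.41, limma adjusted p = 0.0201). Otub1, a deubiquitinase that regulates GRAIL, was above all thymuses in all 10 lymphomas but did not pass (0.50 ± 0.19 and 0.48 ± 0.19, limma adjusted p = 0.0512 and 0.0667, and 0.31 in both with the length trend removed).

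Pag1, the membrane adaptor that anchors Csk next to Lck, had 8056, 8592 and 9021 normalized counts in WT thymuses, 2542 to 4345 in Atm-/- and 2803 to 5557 in Rag2c/c p53-/- lymphomas. The log2 differences were -1.27 ± 0.24 and -1.19 ± 0.24 (limma adjusted p = 0.000987 and 0.00195), and -0.85 and -0.80 with the length trend removed. Of the 6 tested anchors and Dok adaptors, 4 passed as lower in Atm-/- lymphomas, among them Lax1 (-1.03 ± 0.27), and 1 in Rag2c/c p53-/- lymphomas.

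Among 14 other phosphatases, 6 passed as lower and 1 as higher in Atm-/- lymphomas, and 4 and 1 in Rag2c/c p53-/- lymphomas. Dusp6, an ERK phosphatase that is itself induced by ERK, was lower with log2 differences of -2.52 ± 0.33 and -2.77 ± 0.33 (limma adjusted p = 7.06e-05 and 6.00e-05). Dusp5, of the same class, was lower with -1.04 ± 0.38 and -1.597 ± 0.38. Ptprc, the phosphatase CD45 that opposes Csk on Lck, was lower with -0.80 ± 0.26 in Atm-/- lymphomas and -1.496 ± 0.26 in the Rag2c/c p53-/- lymphomas. Its exonic length is 18313 bp, and with the length trend removed Ptprc no longer passed in Atm-/- lymphomas (-0.09 ± 0.15, limma adjusted p = 0.659) and was at -0.76 ± 0.15 in Rag2c/c p53-/- lymphomas (limma adjusted p = 0.00197). Acp1 was higher in Rag2c/c p53-/- lymphomas by 0.77 ± 0.23 and lower in Atm-/- than in Rag2c/c p53-/- lymphomas, with -1.17 ± 0.20 (limma adjusted p = 0.0180 and 0.00220).

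The 9 brakes on lipid and Ras signals had 7 genes that passed as lower in Atm-/- lymphomas, and 8 as lower and 1 as higher in Rag2c/c p53-/- lymphomas. Spry2, an inhibitor of Ras signaling, had 131, 78 and 113 normalized counts in WT thymuses and at most 41 in any lymphoma, and was lower with log2 differences of -4.58 ± 0.89 and -3.32 ± 0.89 (limma adjusted p = 0.00116 and 0.0103). Its relative Spry1 had 198, 188 and 173 in WT thymuses, 100 to 290 in Atm-/- and 545 to 942 in Rag2c/c p53-/- lymphomas, a rise of 1.81 ± 0.31 in the latter (limma adjusted p = 0.000655). The lymphoma types did not overlap in Spry1 (-1.82 ± 0.27, limma adjusted p = 0.000722). Pik3ip1, an inhibitor of phosphoinositide 3-kinase, was lower with -1.15 ± 0.26 and -0.76 ± 0.26.

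The substrates were mixed. Lck, on which Csk, Ptpn22 and Ptpn2 act, had 18550, 28454 and 19090 normalized counts in WT thymuses, 15165 to 23441 in Atm-/- and 17062 to 30142 in Rag2c/c p53-/- lymphomas, and did not pass (-0.18 ± 0.22, 95% confidence interval -0.64 to 0.29, and -0.02 ± 0.22, -0.49 to 0.44). Of 13 substrates, 8 passed as lower in Atm-/- lymphomas and 6 in Rag2c/c p53-/- lymphomas, and 0 as higher. Prkcq, a protein kinase C that acts downstream of the receptor, was lower with log2 differences of -1.33 ± 0.42 and -1.71 ± 0.42, and Lcp2, the adaptor SLP-76, with -0.91 ± 0.19 and -1.099 ± 0.19. The Atm-/- difference of Prkcq no longer passed with the length trend removed (-1.03 ± 0.42, limma adjusted p = 0.0579).

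Of 5 transcription factors that induce the brakes or accompany anergy, 4 passed as lower in each comparison. Egr2, which induces Cblb and Itch in anergic T cells, had 770, 825 and 965 normalized counts in WT thymuses, 32 to 66 in Atm-/- and 30 to 75 in Rag2c/c p53-/- lymphomas. The log2 differences were -4.13 ± 0.35 and -4.28 ± 0.35 (limma adjusted p = 2.74e-06 and 4.34e-06). Egr3 was lower with -4.64 ± 0.82 and -4.12 ± 0.82, and Foxp3, which marks regulatory T cells, had 236, 240 and 240 in WT thymuses and at most 15 in any lymphoma. The fall of Egr2, Egr3 and Foxp3 was kept with the length trend removed, where each still passed.

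**Figure D5:**
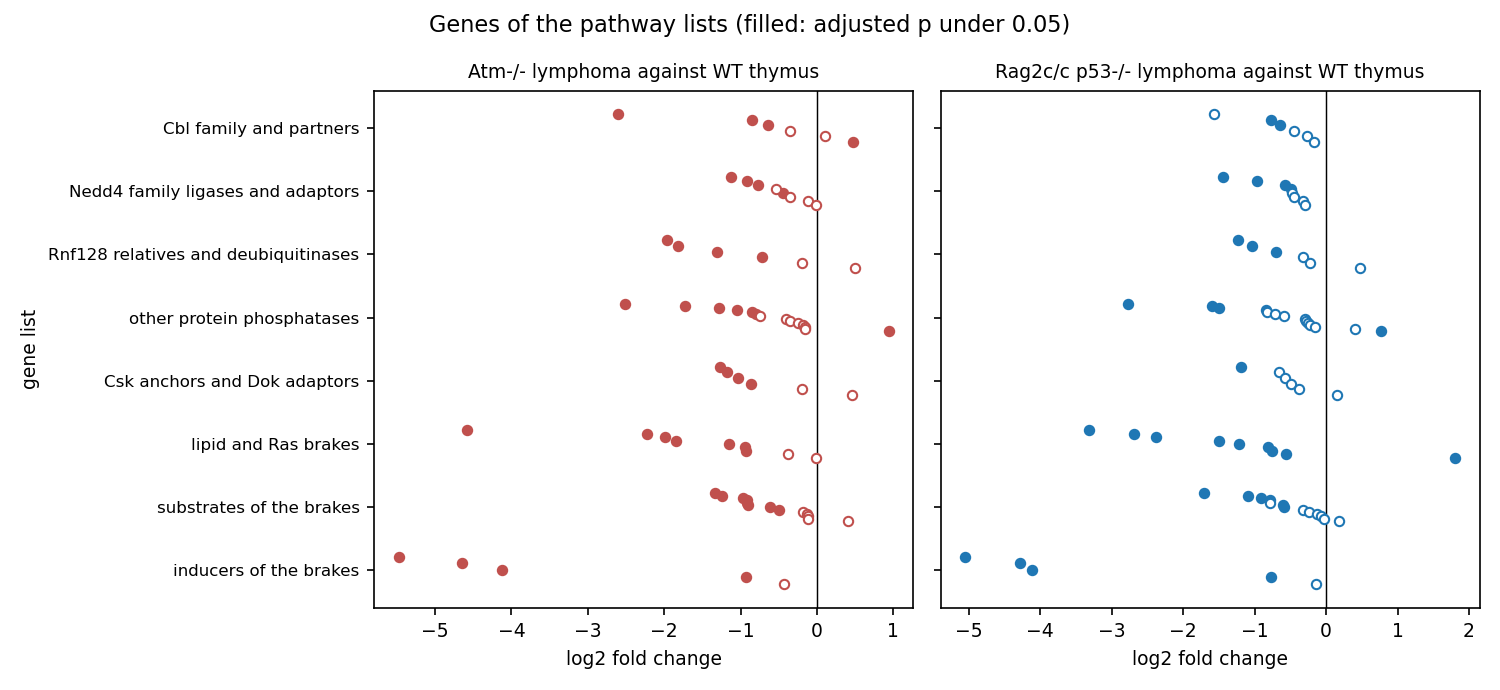
Log2 fold change of the 67 tested genes of the 8 lists in Atm-/- (left) and Rag2c/c p53-/- lymphomas (right) against WT thymus, 1 point per gene, filled at an adjusted p under 0.05. Most filled points lie below 0 (40 and 32), and Egr2, Egr3 and Foxp3 among the inducers and Spry2 among the lipid and Ras brakes lie lowest.

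The genes whose profiles over the 13 libraries lay closest to each brake were found by the root mean square difference of centered log2 values. Cbl was closest to Rel (0.22) and Vps13c (0.26), Cblb to Dram2 (0.15) and Sypl (0.19), and Itch to Ralgapb (0.12) and Frs2 (0.14). Rnf128 was closest to Emilin2 (0.34) and Ceacam16 (0.38), Ptpn2 to Zc3hc1 (0.11) and Ssbp1 (0.13), and Ptpn6 to Pml (0.15) and Daxx (0.17). Ptpn22 was closest to Zfp629 (0.22) and 4632415L05Rik (0.24), and Csk to Rab7 (0.08) and Rab1b (0.09). No gene among the 8 was among the 2 closest to another. Rel, encoding an NF-kappaB subunit, averaged 434.7 normalized counts in WT thymus, 64.4 in Atm-/- lymphomas and 103.8 in Rag2c/c p53-/- lymphomas. Genes that overlap the 8 brakes in the annotation, such as Gm15472 within Ptpn22, had a mean of at most 10.8 normalized counts.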

How the data were processed

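RNA from 13 libraries was analysed from the deposited table of genes. Per the labels, reads were handled with bcl2fastq 1.8.3, STAR 2.4.0g1, Picard and DESeq2 1.6.3 on GRCm38. The values the authors deposited are scores, namely normalized counts rounded to whole numbers, so count models were not run. Columns of the authors' fold changes and p-values were not used. limma 3.58.1 (R 4.3.3, trend and robust) was fitted to log2(normalized count + 1) of all 3 groups over 15872 genes with at least 10 in 3 libraries, with Benjamini-Hochberg adjustment over all of them. The fit was tested on simulated data. The limma p-values set a difference of group means against the spread between mice within groups. That spread was estimated over all 3 groups and moderated across genes. Exonic lengths and overlapping genes came from GENCODE vM21, promoter windows from RefSeq. The 8 genes, the lists and the tests were chosen with earlier results of these data known. Genes of the lists were named if they had the highest or lowest log2 fold change among those that passed at 2-fold, beside Cblc, Ubash3a, Ubash3b, Pag1, Ndfip1, Otub1 and Lck. Sh3kbp1, Cd5 and Cd8a were picked after values were seen. Alternatives covered scaling, filter, pseudocount, moderation, groups, left-out libraries and, added later, transcript length and depth. Erythroid and endothelium markers were summed too: 794 to 6150 and 1821 to 6194 over all libraries. Hbb-bs and Pecam1 were their most abundant genes, and Pecam1 alone had 1809 to 6173. The values of 1 listed substrate are not reported here.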

Additional observations from a re-analysis of the deposited data

Results flagged for a closer look

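Csk in replicate 2 of the Atm-/- lymphomas, at 11185 normalized counts, lay apart from the other 4 lymphomas of its group (9257 to 9798). Its gap to the nearest was 0.719 of the group's range, above Dixon's critical value of 0.710. Of 16 sets of 5 libraries examined, chance alone would set apart about 1 in 20. The library has an estimated 9.23 M reads, the fewest of its group.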

How the results depend on the processing

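Of 573 recomputed log2 differences of the 8 genes, 531 kept direction and side of the threshold, 28 lost and 13 gained a call, and 1 turned. The turned one is Cblb in Atm-/- lymphomas, at 0.087 with the length trend removed. Cbl passed in both comparisons with WT thymus, and Itch in Atm-/- lymphomas, under every alternative run. Rnf128 was not tested with a minimum of 50.

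In Rag2c/c p53-/- lymphomas against WT thymus, 5 of 8 genes passed in the report, 3 with limma without trend and robust, 3 with the length trend removed, 3 without the 3 libraries of fewest estimated reads, and 2 to 5 with 1 library left out (2 without WT replicate 1 or 3, 3 without WT replicate 2 or Atm-/- replicate 4). At 2-fold it was 2 in the report, 1 with quantile normalization, 1 with the length trend removed, 1 without the 3 libraries, and 1 to 4 with 1 library left out (4 without Rag2c/c p53-/- replicate 1, 1 without its replicate 2). For Atm-/- lymphomas against WT thymus, 5 passed without the 3 libraries in place of 3, and 1 was 2-fold lower with the length trend removed in place of 2. Between the lymphoma types, 1 in place of 0 passed with quantile normalization, the length trend removed or the exact permutation test (unadjusted), and 0 to 1 with 1 library left out (Cblb without Atm-/- replicate 3, Itch without Rag2c/c p53-/- replicate 2). Of the list genes, 5 in place of 9 passed there with only the 2 groups compared. The cause of these shifts was not tested. Values of Rnf128, at most 53, rest on few reads. The length and depth alternatives were added after seeing the data.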
